A study of Mus musculus with 17 samples.

Results

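The 9 genes Mbp, Mog, Mag, Mobp, Cnp, Cldn11, Mal, Ermn and Opalin, which encode proteins of myelin and of the oligodendrocytes that make it, were followed in isolated microvessels of mouse cerebral cortex. They were chosen by symbol, as the rows of the deposited count table whose Ensembl identifiers carry these names, and are 9 of 42687 genes. All 9 were among the 18753 genes with enough counts to be tested. RNA was sequenced in 17 libraries from mice aged 10 to 11 months. The mice were wild type (WT) or APP/PS1, a strain with transgenes that lead to amyloid deposits in the brain and that serves as a model of Alzheimer's disease. Every mouse was given a peptide at 10 mg/kg by intraperitoneal injection, at intervals of 2 days over 2 weeks, so that no group was untreated. Some mice were given gp91-ds-tat, which inhibits the superoxide-producing enzyme NOX2 (taken as the group label NOX2), and the others its control sgp91-ds-tat (taken as the label SC). The groups were WT with control peptide (WT_SC, 5 libraries), WT with inhibitor (WT_NOX2, 5), APP/PS1 with control peptide (APP_SC, 2) and APP/PS1 with inhibitor (APP_NOX2, 5). The protocol speaks of cortices taken on the ipsilateral side after a surgery that it does not describe. Sex and the promoter of the transgenes are not given in the sources used here. Nothing in the labels says that the libraries of a group came from separate mice, so p-values measure the spread between these libraries.

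Myelin is a spiral of oligodendrocyte membrane around axons, compacted where its faces meet and held to the axon by adhesion proteins. In compact myelin Mbp and Mobp, small basic proteins, bind the cytoplasmic faces of the membrane. Mag lies on the membrane next to the axon and Mog on the outermost surface, while Cnp, a cyclic nucleotide phosphodiesterase, keeps cytoplasmic channels open. Cldn11 is the claudin of the tight junctions between myelin layers, and Mal is a proteolipid of lipid-rich membrane domains. Ermn (ermin) is a cytoskeletal protein of mature oligodendrocytes, and Opalin is a membrane glycoprotein of differentiated oligodendrocytes. Mature oligodendrocytes switch these genes on under the transcription factors Sox10, Olig2 and Myrf. The transcripts of Mbp and Mobp are also carried into the processes of the cell and translated there.

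Total counts ran from 7316503 to 17862965 per library (median 11342154), and a pair of ribosomal RNA-linked genes, Gm26917 and Gm42418, took 4.76% to 15.99% of them. The 9 genes together held 0.109% to 0.157% of the counts, and a single gene had 109 (Opalin) to 8796 (Mbp) counts in a library. Levels are CPM, the counts of a gene scaled to a fixed library total, with library sizes corrected by TMM (trimmed mean of M values). The labels give the cell type as endothelium, pericytes and astrocyte endfeet. Markers of these cells were present: per kilobase of exon, the median level was 169.9 CPM for Cldn5 (endothelium), 155 CPM for Rgs5 (pericytes) and 14.8 CPM for Aqp4 (astrocyte endfeet). Neuronal Syt1 stood at 216 CPM per kilobase, so neuronal RNA was present as well. These are single markers, and markers of 1 cell type differed widely. Counts per library were 633 to 2431 for Aqp4 and 18388 to 61067 for astrocyte Slc1a2. They were 10173 to 41025 for Syt1 and 193 to 592 for neuronal Tubb3. The levels named here therefore do not rank the cell types. Of 5 markers of Schwann cells, the myelinating cells of peripheral nerve, 3 could be tested and summed to 4.92 to 9.70 CPM, and Pmp2 had 0 counts in every library. The 9 myelin genes summed to 1007 to 1626 CPM. As a check of genotype, the range of Prnp was 301 to 555 CPM in WT and 682 to 1418 CPM in APP/PS1. The same range was 1262 to 2229.7 CPM in WT and 1897 to 3334 CPM in APP/PS1 for App.

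The upstream sequences of 4 members are shown because the results below turn on them: Mobp, with a difference under inhibitor that passed only an unadjusted test, and Cldn11, Mal and Opalin, whose levels went together or apart from library to library. They are RefSeq promoter sequences of assembly GRCm38.p6, printed 5′ to 3′ on the strand of the gene and ending at its RefSeq start, except that Mobp is cut to the 215 bases before the start of the gene in GENCODE vM21. Capitals mark matches, on either strand, to ACAAAG or ACAATG (the core of sites for Sox factors such as Sox10), CTGGCAC or CTGGTAC (Myrf-type) and CAGATG or CAGCTG (E-boxes, bound by Olig-type factors). No printed match overlaps another. Mobp is shown at chr9:120149492-120149706 (plus strand), Opalin at chr19:41077114-41077363 (minus strand), Cldn11 at chr3:31149670-31149919 (plus strand) and Mal at chr2:127656696-127656945 (minus strand).
Mobp: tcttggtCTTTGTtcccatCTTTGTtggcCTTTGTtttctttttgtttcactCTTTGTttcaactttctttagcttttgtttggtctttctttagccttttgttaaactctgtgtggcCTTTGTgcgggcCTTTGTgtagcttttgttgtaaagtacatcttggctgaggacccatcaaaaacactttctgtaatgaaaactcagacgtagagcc
Opalin: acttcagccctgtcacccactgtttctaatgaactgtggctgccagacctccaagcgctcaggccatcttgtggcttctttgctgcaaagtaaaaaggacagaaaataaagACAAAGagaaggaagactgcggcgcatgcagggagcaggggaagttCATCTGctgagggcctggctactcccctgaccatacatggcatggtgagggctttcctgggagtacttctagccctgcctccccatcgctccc
Cldn11: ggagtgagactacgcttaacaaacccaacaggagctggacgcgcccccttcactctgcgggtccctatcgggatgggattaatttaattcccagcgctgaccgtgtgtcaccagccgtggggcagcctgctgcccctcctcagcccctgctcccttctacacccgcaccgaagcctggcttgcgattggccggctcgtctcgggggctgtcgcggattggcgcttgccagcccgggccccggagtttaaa
Mal: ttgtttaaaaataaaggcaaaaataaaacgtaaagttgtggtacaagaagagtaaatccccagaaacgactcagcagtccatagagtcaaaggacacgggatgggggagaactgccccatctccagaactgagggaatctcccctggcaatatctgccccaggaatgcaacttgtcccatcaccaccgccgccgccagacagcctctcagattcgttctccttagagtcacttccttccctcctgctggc
Mobp held 6 copies of ACAAAG, all on the reverse strand and so read as CTTTGT above. Of 32851 promoters searched over the 250 bases before the start, 16.5% held ACAAAG at least once, and only 1, that of Mobp, held 6 or more copies. The cut of 6 is the count found in Mobp, so that Mobp reached it was fixed in advance. Cuts between 1 and 6 copies were not counted. Opalin held 1 copy of ACAAAG and 1 of CAGATG, which 14.4% of promoters held. None of the 6 motifs was found in the windows of Cldn11 and Mal. Mbp was left out of this search. Among the 8 members searched, 5 held a Sox10-type match (25.2% of all promoters did), 3 a Myrf-type match (5.93%) and 1 an E-box (25.5%). A member counted when any of its promoters held a match, while the percentages are shares of single promoters. Mag had several promoters, not all with a match, so members and percentages are not on the same footing. Cnp and Mag held both ACAAAG and CTGGCAC, Mog held CTGGTAC and Ermn held ACAATG. Over the 250 bases searched, the share of G and C bases was 63.6% for Cldn11, 54.4% for Opalin and 40.8% for Mobp, against a median of 52.4% over all promoters.

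On the scale of level per kilobase of exon, Cldn11 was the highest of the 9 at 72.3 CPM per kilobase, rank 144 of the 18753 genes tested. Mbp followed at 57.8 and Mal at 57.1 CPM per kilobase, then Mag at 37.5, Mog at 26.9 and Mobp at 26.6. Cnp (14.8), Opalin (7.43) and Ermn (6.13) were the lowest. Neighbours in this order lay close together: Mbp and Mal differed by less than the spread of either over the libraries, and so did Mog and Mobp. The exons of a gene were taken as their union, so a gene with long rarely used exons has its level per kilobase understated. In raw level Mbp was by far the highest, at 391 to 740.4 CPM in the 17 libraries.

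**Figure D1:**
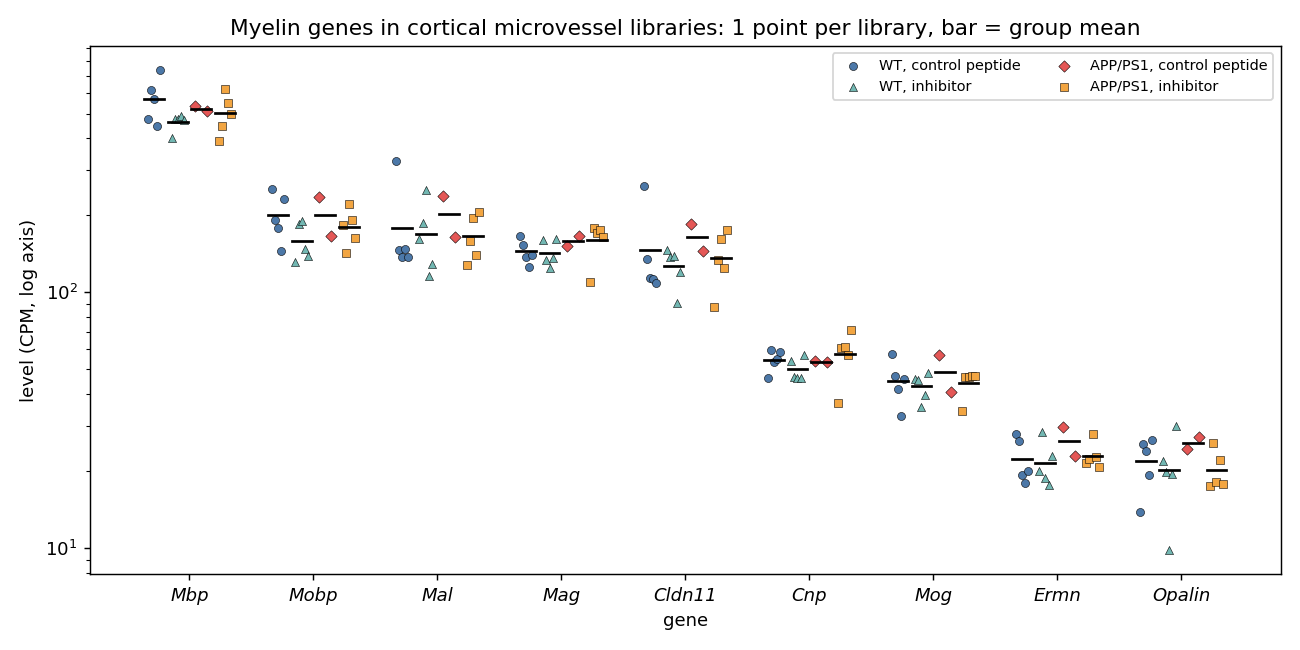
Level of each of the 9 myelin genes (CPM, log axis) in each of 17 libraries, 1 point per library, with the mean of each group as a bar. The 4 groups overlapped for every gene, and WT_SC replicate 1 stood high for Mal (326 CPM) and Cldn11 (261 CPM).

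The basic proteins of compact myelin were the members with the clearest difference between peptides, and that difference did not pass the test. Mbp lies on chromosome 18 and its position and sequence are not given. Mbp stood at 474, 619, 571, 446 and 740.4 CPM in replicates 1 to 5 of WT with control peptide. In WT with inhibitor the Mbp level was 399.6, 478, 477, 489 and 473 CPM. The inhibitor libraries were close to one another apart from the lowest, and all lay inside or below the range of the control peptide. In APP/PS1, Mbp was at 534 and 509.9 CPM with control peptide and at 391, 446, 624, 549 and 498 CPM with inhibitor, so the 2 control libraries lay within the inhibitor group. Group means were 570.2 ± 118 CPM (SD, n = 5) and 463 ± 36.1 CPM (SD, n = 5) in WT. In WT the log2 change with inhibitor was -0.30 ± 0.14 (SE), with a 95% interval of -0.59 to -0.0098, an unadjusted p of 0.0434 and an adjusted p of 1.000 (edgeR's quasi-likelihood test, Benjamini-Hochberg). Without WT_SC replicate 5, the highest Mbp library, the unadjusted edgeR p was 0.174, and over all libraries left out in turn it ran from 0.0131 to 0.174. In APP/PS1 the log2 change was -0.057 ± 0.18 (SE), and the interval of -0.44 to 0.32 included the WT value.

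Mobp lies at chr9:120149707-120181484, plus strand, GRCm38 in the GENCODE vM21 annotation, as do the positions that follow. It shares 79 exon bases with Gm38642 on the same strand, so a small part of its counts is uncertain. Mobp was at 254, 192, 178, 145 and 231 CPM in WT with control peptide and at 131, 184, 190.5, 147 and 138 CPM in WT with inhibitor. Only 2 of the 5 inhibitor libraries exceeded the control library at 178 CPM, and the groups overlapped. In APP/PS1, Mobp was at 235 and 166 CPM with control peptide and at 182, 143, 222, 192 and 163 CPM with inhibitor. Of the 5 inhibitor libraries 3 lay between the 2 control libraries. The log2 change with inhibitor was -0.34 ± 0.16 (SE) in WT (unadjusted p = 0.0459 by edgeR) and -0.15 ± 0.21 (SE) in APP/PS1 (unadjusted p = 0.466). Over both genotypes it was -0.27 ± 0.12 (SE), a fold of 0.829 with a 95% interval of 0.694 to 0.991, with an unadjusted p of 0.0406 and an adjusted p of 1.000 (edgeR, Benjamini-Hochberg). An unadjusted p under 0.05 was reached by 2.11% of all genes there. With single libraries left out the estimate ran from -0.35 to -0.20, and whether its unadjusted p stayed under 0.05 is not given here.

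Of the members of the membrane surfaces, Mag had the narrowest range of the 9 (1.63-fold from lowest to highest library), while Mog spanned 1.76-fold. Mag (chr7:30899176-30914873, minus strand) spanned 124 to 166 CPM (median 139) in the 10 WT libraries and 109 to 179 CPM (median 166) in the 7 APP/PS1 libraries. In APP_NOX2, 4 of 5 libraries lay between 165 and 179 CPM and replicate 1 lay at 109 CPM. Mog (chr17:37010743-37023398, minus strand) spanned 32.7 to 57.5 CPM (median 45.7) in WT and 34.2 to 56.8 CPM (median 46.7) in APP/PS1. Its APP_NOX2 libraries were between 46.5 and 47.1 CPM except replicate 1, at 34.2 CPM. The low library was therefore the same one for both genes. APP_NOX2 replicate 1 was the lowest of all 17 libraries for Mag, Mbp, Cnp and Cldn11. It also had the lowest share of the ribosomal RNA-linked genes (4.76%), whose part in these levels was not tested. Mag had the smallest adjusted p of the 9 for genotype over both peptides, 0.874 by edgeR with Benjamini-Hochberg adjustment, with a log2 change of 0.15 ± 0.094 (SE) and an interval of -0.044 to 0.35.

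Cnp (chr11:100574904-100591729, plus strand), the phosphodiesterase of the cytoplasmic channels, spanned 46.0 to 59.2 CPM (median 53.6) in WT and 36.8 to 71.0 CPM (median 56.6) in APP/PS1. Both ends of its range were APP_NOX2 libraries, replicate 1 at 36.8 and replicate 5 at 71.0 CPM. The cytoskeletal gene Ermn (chr2:58045113-58052864, minus strand) spanned 17.7 to 28.3 CPM (median 19.9) in WT and 20.7 to 29.7 CPM (median 22.6) in APP/PS1. Its highest library was APP_SC replicate 1 at 29.7 CPM, with WT_NOX2 replicate 2 at 28.3 CPM. Cnp shares 154 exon bases with Dnajc7 and Ermn 237 with Galnt5, both on the opposite strand. The strand setting of the counting is not given in the sources used here, so reads in those stretches are uncertain.

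The junction protein gene Cldn11 and the proteolipid gene Mal had a single very high library. Cldn11 (chr3:31149920-31164324, plus strand) was at 261, 135, 114, 113 and 109 CPM in WT with control peptide and 146, 137, 138, 90.7 and 120.1 CPM in WT with inhibitor. In APP/PS1, Cldn11 was at 185 and 144 CPM with control peptide and 87.4, 134, 162, 124 and 175 CPM with inhibitor. WT_SC replicate 1 was the highest of all 17, and without it the WT libraries lay between 90.7 and 146 CPM. Mal (chr2:127633226-127656695, minus strand) was at 326, 147, 137, 147 and 137 CPM in WT with control peptide and 161, 186, 250.4, 116 and 129 CPM in WT with inhibitor. In APP/PS1, Mal was at 238 and 164 CPM with control peptide and 127, 159, 196, 139 and 205 CPM with inhibitor. Again WT_SC replicate 1 was the highest, followed by WT_NOX2 replicate 3, and the other 4 libraries of WT_SC lay within 137 to 147 CPM. The log2 change of Mal with inhibitor in WT was -0.087 ± 0.25 (SE) with all libraries and 0.25 without WT_SC replicate 1, a change of sign. That of Cldn11 was -0.21 ± 0.23 (SE) and 0.11 without that library. Group means of Cldn11 were 146 ± 64.8 CPM (SD, n = 5) and 126 ± 22.2 CPM (SD, n = 5).

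Opalin (chr19:41061710-41077113, minus strand) had the lowest counts of the 9. Opalin was at 13.8, 25.6, 23.9, 19.3 and 26.5 CPM in WT with control peptide and 21.9, 19.8, 9.78, 19.5 and 29.9 CPM in WT with inhibitor. In APP/PS1, Opalin was at 24.3 and 27.0 CPM with control peptide and 17.4, 25.8, 18.02, 22.05 and 17.8 CPM with inhibitor. Its lowest libraries were WT_NOX2 replicate 3 and WT_SC replicate 1, the same ones that had the highest Mal. Those libraries also had the lowest levels of 3 erythroid genes, with mean log2 CPM of -1.06 (WT_SC replicate 1) and -1.16 (WT_NOX2 replicate 3) against 0.40 to 3.28 in the others. The choroid plexus markers were lowest in WT_SC replicate 1 (mean log2 CPM 1.497, against 3.01 to 7.83 in the others) and at 3.23 in WT_NOX2 replicate 3. The part of these marker levels in the myelin results was not tested.

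Spread between libraries of a group also set the members apart from one another. The pooled within-group SD of log2 CPM was 0.43 for Mal, 0.41 for Opalin and 0.40 for Cldn11. It was between 0.21 (Mag) and 0.28 (Mobp) for the other 6, near the median of 0.25 over all genes tested. The highest library exceeded the lowest by 3.06-fold for Opalin, 2.99-fold for Cldn11 and 2.82-fold for Mal. For the other 6 the same ratio ran from 1.63 (Mag) to 1.94 (Mobp).

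Some members, but not Mbp, Mobp or Opalin, were in pairs whose log2 CPM correlated past the threshold over the 17 libraries. Of the 36 pairs of members, 30 had a positive Pearson r and 6 a negative one, with a median of 0.38. After Benjamini-Hochberg adjustment over the 36 pairs, 6 passed a two-sided permutation test with 100000 resamples, all positive, and 2 did so by Spearman's rho. Mbp, Mobp and Opalin were in none of these pairs. Mobp had r = 0.0042 with Mag and -0.12 with Cnp, but other pairs of Mobp came nearer the threshold. Mbp with Mobp had r = 0.57 and Mobp with Ermn had 0.58, each with an adjusted permutation p of 0.0589. Mobp with Mal had 0.55 (adjusted permutation p = 0.0746). The values of a library share its depth and its scaling, and their part in these relations was not tested. Cldn11 and Mal had the highest r, 0.89 (Spearman's rho 0.91, permutation p = 1e-05 for both, the smallest these resamples can give, adjusted p = 0.00036). It was 0.89 on deviations from the group means and 0.82 without WT_SC replicate 1 and APP_NOX2 replicate 1, the libraries farthest from the median of Cldn11. The relation thus held in the remaining libraries.

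Mog, the gene of the outer surface, took part in 3 of the other 5 pairs and had r = 0.85 with the mean of the other 8 members. Mog and Mag had r = 0.71 (permutation p = 0.00116, adjusted p = 0.0139), rho = 0.69 (permutation p = 0.00274, adjusted p = 0.0493), and r = 0.53 without APP_NOX2 replicate 1 and WT_SC replicate 4. Mog and Ermn had r = 0.71 (permutation p = 0.00148, adjusted p = 0.0139), rho = 0.66 (permutation p = 0.00454, adjusted p = 0.0545), and r = 0.72 without APP_NOX2 replicate 1 and WT_SC replicate 4. Mog and Cldn11 had r = 0.71 (permutation p = 0.00155, adjusted p = 0.0139), rho = 0.59 (permutation p = 0.0140, adjusted p = 0.0962), and r = 0.65 without APP_NOX2 replicate 1 and WT_SC replicate 4. These remained positive without the farthest libraries. Mag and Cnp had r = 0.69 (permutation p = 0.00198, adjusted p = 0.0143), rho = 0.58 (permutation p = 0.0160, adjusted p = 0.0962), and r = 0.42 without APP_NOX2 replicate 1 and WT_NOX2 replicate 3. That r was the one most dependent on its farthest libraries. Cldn11 and Ermn had r = 0.62 (permutation p = 0.00609, adjusted p = 0.0365), rho = 0.55 (permutation p = 0.0244, adjusted p = 0.126), and r = 0.63 without APP_NOX2 replicate 1 and WT_SC replicate 1. On deviations from the group means this last pair had r = 0.59 and an adjusted permutation p of 0.0599, which did not pass, and 5 positive pairs did. That permutation treated the 17 deviations as free values although 4 group means had been removed. Its p-values may therefore be too small. By rank, Cldn11 with Mal and Mog with Mag were the pairs past the threshold.

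**Figure D2:**
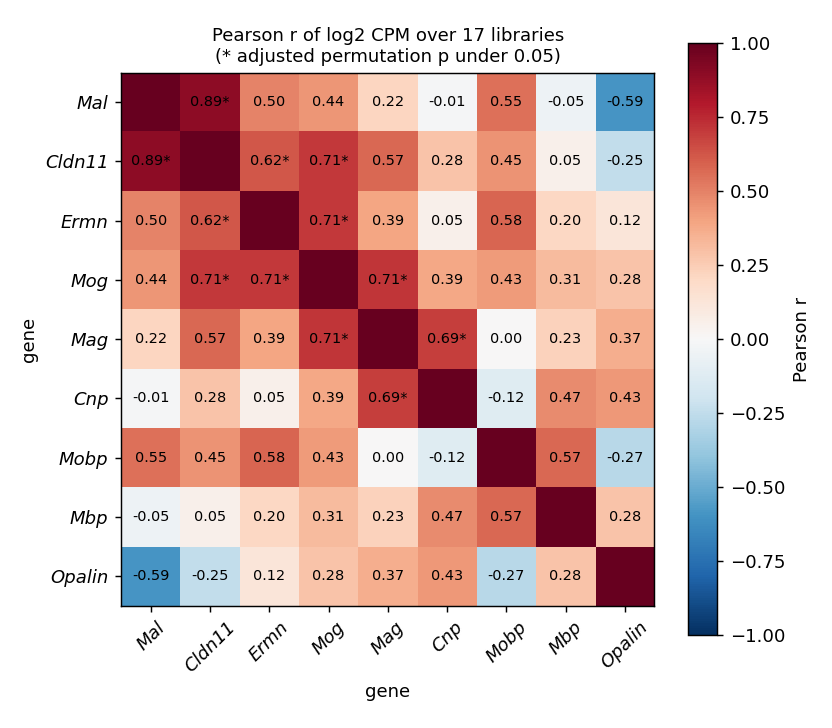
Pearson r of log2 CPM for each pair of the 9 genes over 17 libraries, with a star where the adjusted permutation p was under 0.05. Cldn11 with Mal was the highest (r = 0.89) and Mal with Opalin the lowest (r = -0.59).

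Opalin had r = -0.054 against the mean of the other 8 members. That value was not computed without WT_SC replicate 1 and WT_NOX2 replicate 3. Leaving out both moved the r of Opalin from 0.28 to 0.42 with Mog, from -0.27 to -0.045 with Mobp and from -0.25 to 0.080 with Cldn11. It moved little with Mag (0.37 to 0.39), Mbp (0.28 to 0.30) and Ermn (0.12 to 0.12), and fell with Cnp (0.43 to 0.27). Mal and Opalin had r = -0.59 (rho = -0.39, permutation p = 0.0140 for r and 0.121 for rho, adjusted p = 0.0589 and 0.312), which did not pass. On deviations from the group means r was -0.72 (adjusted permutation p = 0.0159, which may be too small because the permutation did not allow for the group means removed). Without WT_SC replicate 1 and WT_NOX2 replicate 3 it was -0.16, so the relation rested on those libraries. The pair of plots of Mal against Cldn11 and Opalin shows both cases: the 2 libraries lie at the high end of Mal, and at the low end of Opalin.

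**Figure D3:**
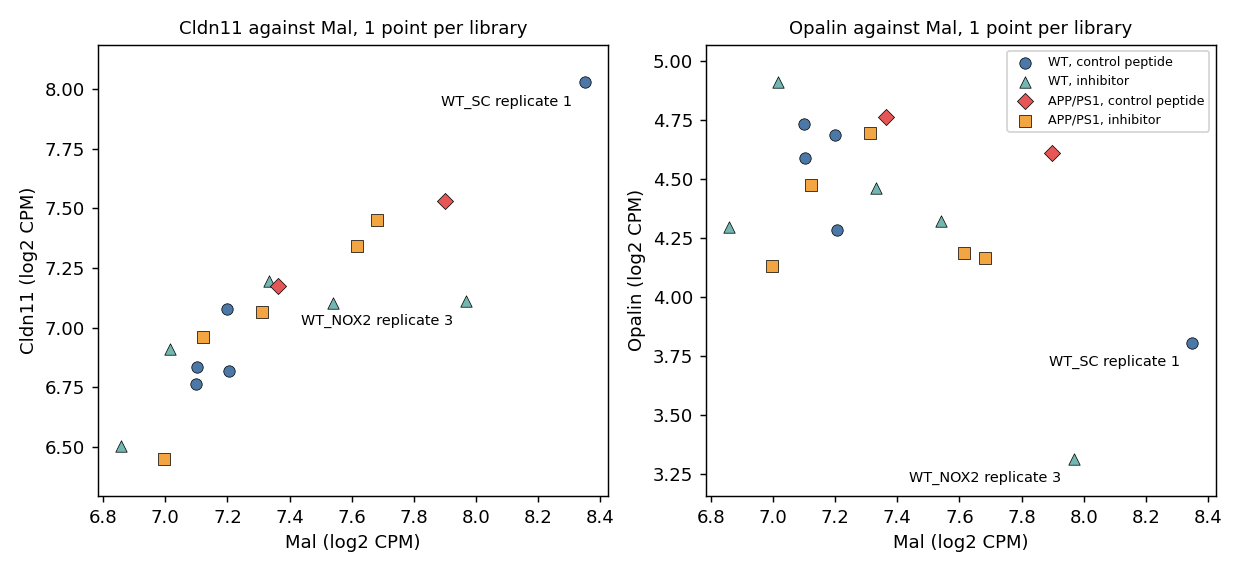
Cldn11 (left) and Opalin (right) against Mal, all in log2 CPM, 1 point per library, with colour and marker for the group. Cldn11 was higher where Mal was higher (r = 0.89), while the low Opalin values of WT_SC replicate 1 (13.8 CPM) and WT_NOX2 replicate 3 (9.78 CPM) carried the negative relation.

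The genotype comparison asks whether myelin RNA differs in microvessels of amyloid-bearing mice. Over both peptides, 0 of the 9 genes passed edgeR's test at an adjusted p of 0.05, where 110 of 18753 genes (0.587%) did. At an unadjusted p under 0.05 the edgeR count was 0 of 9 against 6.38% of all genes, and DESeq2 called 0 of 9 as well. The estimates were nevertheless all above 0, from 0.027 (Mbp) to 0.15 (Mag), with a median of 0.11, where 50.7% of all genes lay above 0 and their median was 0.0017. The members share the same libraries, so these signs are not 9 separate observations. The lowest bound of the 9 intervals was -0.35 and the highest 0.49 on the log2 scale. With each library left out in turn 7 to 9 of the 9 were above 0, and the median was 0.068 without APP_NOX2 replicate 5 and 0.076 without APP_SC replicate 1. Mal, Mbp, Mog and Opalin each turned below 0 without some library. In bulk libraries a difference in the number of oligodendrocytes and one in RNA per cell cannot be told apart. Among markers of other cells, 5 of 6 microglial ones rose by genotype (6 of 6 estimates above 0, median 0.69). Their summed levels were 179.7 to 249.6 CPM in WT and 219 to 399 CPM in APP/PS1. Of the astrocyte markers 1 of 7 rose, and 6 of 7 estimates were above 0 (median 0.19). Of the choroid plexus markers 0 of 6 passed and 6 of 6 estimates were below 0 (median -0.56; summed level 30.3 to 8159 CPM in WT and 200.2 to 4755 CPM in APP/PS1). Of the smooth muscle markers 0 of 5 passed and 5 of 5 were above 0 (median 0.13; 120.3 to 309 and 159.6 to 339.7 CPM). The part of these cells in the myelin estimates was not tested.

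With control peptide, which compares 2 APP/PS1 libraries with 5 of WT, 0 of 9 passed edgeR (background 0.0533%, 10 genes) and 0 of 9 had an unadjusted p under 0.05 (background 3.97%). Estimates were above 0 for 7 of 9 (51.2% of all genes), from -0.13 for Mbp to 0.24 for Opalin. With inhibitor, 0 of 9 passed edgeR (background 0.181%, 34 genes) and 0 of 9 had an unadjusted p under 0.05 (background 3.38%). The estimates ran from -0.029 for Mal to 0.19 for Cnp, with 7 of 9 above 0 (50.6% of all genes). DESeq2 called 0 of 9 with either peptide. The 2 comparisons share no libraries, and Mbp, Cnp, Mal and Opalin differed in sign between them, the Opalin estimate with inhibitor being -0.0009.

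The inhibitor comparison asks whether blocking NOX2 moved these genes. In WT, 0 of 9 passed edgeR (background 0%, 0 genes), and DESeq2 called 0 of 9 and 0 genes in all. The 2 genes with an unadjusted edgeR p under 0.05 were Mbp and Mobp, described above, where 1.34% of all genes had one. All 9 estimates were below 0, from -0.34 (Mobp) to -0.017 (Mag), with a median of -0.10, where 49.4% of all genes lay below 0. That shared sign depended on single libraries: without WT_SC replicate 1, 4 of 9 were below 0 and the median was 0.039, and without WT_NOX2 replicate 3, 6 of 9 were. The median was -0.17 without WT_NOX2 replicate 5. With both of these libraries left out, a comparison added after the data were seen, 4 were below 0 and 5 above, with a median of 0.061. In the same WT comparison 0 of 5 smooth muscle markers passed, with 5 of 5 estimates above 0 (median 0.42), and their summed level was 120.3 to 294 CPM with control peptide and 181 to 309 CPM with inhibitor. Of the fibroblast and meninges markers 0 of 7 passed and 7 of 7 were above 0 (median 0.27; 372 to 1255 and 612 to 1054 CPM). Not all lists lay that way: 6 of 7 astrocyte markers (median -0.029) and 6 of 6 choroid plexus markers (median -0.29) were below 0. Above 0 were 6 of 8 for endothelium, 6 of 8 for pericytes, 5 of 8 for neurons and 3 of 6 for microglia. Of the 3 tested in each, 3 erythroid and 2 Schwann cell markers were above 0. Of these lists 0 genes passed. The part of these cells in the WT estimates was not tested. In APP/PS1, 0 of 9 passed edgeR (background 0%) and 0 of 9 had an unadjusted p under 0.05 (background 1.8%), with 7 of 9 estimates below 0 (49.8% of all genes) and a median of -0.15, which moved to -0.36 when APP_SC replicate 2 was left out and to 0.0084 when replicate 1 of that group was. The widest APP/PS1 interval was that of Mal, -0.96 to 0.38. DESeq2 called 0 of 9 there. That oligodendrocyte markers were on balance lower with inhibitor was known from an earlier analysis of these libraries when the members were chosen, so their shared sign is not independent evidence.

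Over both genotypes, 0 of 9 passed edgeR (background 0%) and DESeq2 called 0. Mobp was the member with an unadjusted p under 0.05, a level that 2.11% of all genes reached. All 9 estimates were below 0 (48.6% of all genes were), with a median of -0.16, and Mbp had -0.21 ± 0.11 (SE) with an unadjusted edgeR p of 0.0686. Without both WT_SC replicate 1 and WT_NOX2 replicate 3, 8 of 9 were below 0 and the median was -0.074. With single libraries left out 7 to 9 of 9 were below 0, and the median ran from -0.20 to -0.049, the latter without WT_SC replicate 1. It was -0.067 without APP_SC replicate 1, -0.094 without WT_NOX2 replicate 3 and -0.10 without WT_NOX2 replicate 4. Markers of some other cells had estimates of the opposite sign, of which 0 passed. For smooth muscle 5 of 5 were above 0 (median 0.37). Their summed level was 120.3 to 294 CPM with control peptide and 159.6 to 339.7 CPM with inhibitor. For fibroblasts and meninges 7 of 7 were above 0 (median 0.17, sums 372 to 1255 and 393 to 1054 CPM). For erythroid cells it was 3 of the 3 tested (median 0.63, sums 1.04 to 19.0 and 1.35 to 37.9 CPM), and for choroid plexus 6 of 6 (median 0.13). Other lists lay mostly below 0, also with 0 passing: astrocyte 6 of 7 (median -0.074), microglia 5 of 6 (-0.085), pericyte 6 of 8 (-0.014) and neuron 5 of 8 (-0.024). Endothelium had 4 of 8 below 0 and Schwann cells 2 of the 3 tested. The part of all these cells in the myelin estimates was not tested. The interaction, which tests whether the response to inhibitor differs by genotype, called 0 of 9 in edgeR (background 0%) and in DESeq2, and 0 of 9 had an unadjusted p under 0.05 (background 0.843%). Interaction estimates were above 0 for 4 of 9 (49.3% of all genes), from -0.24 (interval -1.003 to 0.52) for Opalin to 0.24 (interval -0.24 to 0.72) for Mbp. In none of the comparisons between groups did the libraries of a member separate without overlap (background 0.272% for genotype over both peptides, 7.53% with control peptide, 0.784% with inhibitor, 0.224% for inhibitor in WT, 4.63% in APP/PS1 and 0% over both genotypes).

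**Figure D4:**
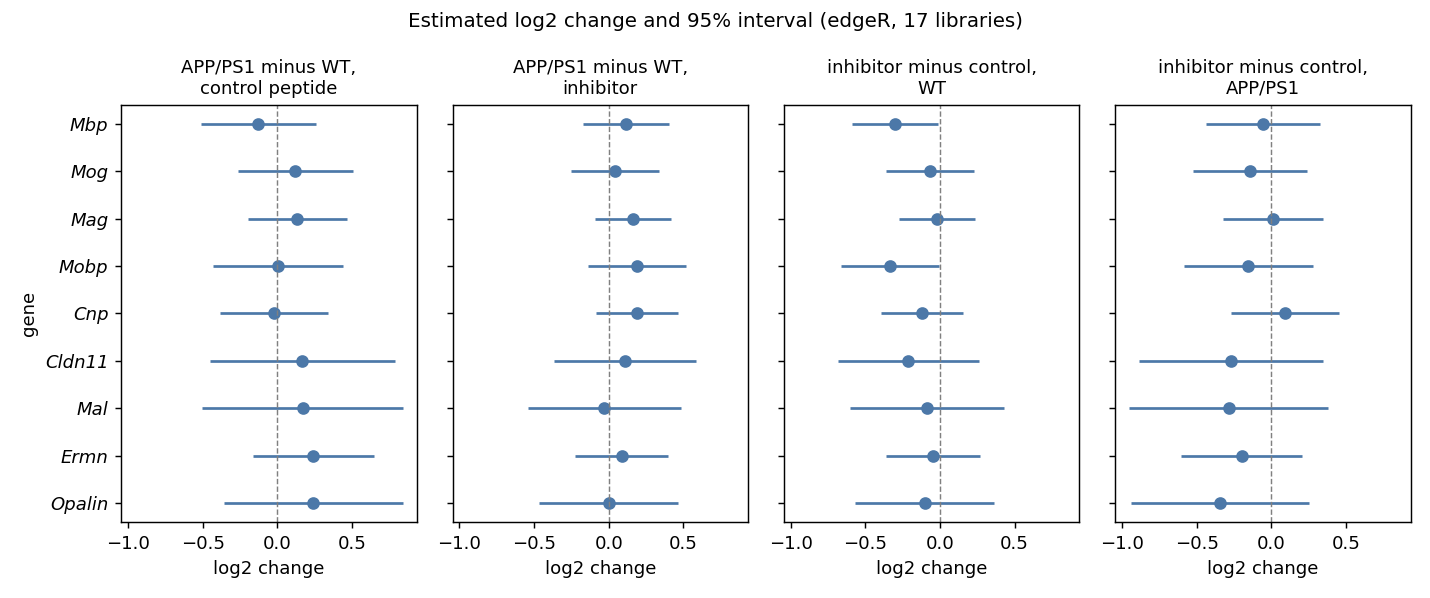
Estimated log2 change with its 95% interval for each of the 9 genes in 4 comparisons, from edgeR over 17 libraries. All intervals included 0 except those of Mbp (-0.59 to -0.0098) and Mobp (-0.66 to -0.0068) for inhibitor in WT.

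The rest of the oligodendrocyte programme was read from 6 further lists of 80 genes, all of them tested. Of the 18 other genes of myelin membrane and structure, 0 passed edgeR for genotype over both peptides and 14 of 18 estimates were above 0 (median 0.13). Of 17 genes of myelin lipid and metabolism, 0 passed (12 above 0, median 0.082). Sqle, an enzyme of cholesterol synthesis, had the smallest p there, with a log2 change of 0.18 ± 0.10 (SE). Of 14 genes of axon contact and glial junctions, 0 passed (8 above 0, median 0.085), and Adamts4, a protease of oligodendrocytes, led with 0.28 ± 0.13 (SE) (unadjusted p = 0.0428 by edgeR). Nfasc, the adhesion protein neurofascin, was the highest of that list at 39.1 CPM per kilobase, and its log2 change was 0.078 ± 0.078 (SE).

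Of 11 oligodendrocyte transcription factors, 0 passed for genotype (9 above 0, median 0.14). Olig1 was the highest of them at 15.4 CPM per kilobase, with a log2 change of 0.17 ± 0.15 (SE), and Zfp536 had the smallest p, with 0.14 ± 0.077 (SE). Of 12 genes of precursors and newly formed oligodendrocytes, 0 passed, with 12 of 12 above 0 and a median of 0.15. Enpp6, a marker of newly formed oligodendrocytes, had 0.38 ± 0.16 (SE) with an unadjusted edgeR p of 0.0302 and an adjusted p of 0.689 (Benjamini-Hochberg). Tnr, an extracellular matrix protein and the highest of that list at 28.5 CPM per kilobase, had 0.072 ± 0.10 (SE). In the list of 8 genes described in disease-associated oligodendrocytes, 1 rose (0.56% of all genes did): C4b, a complement component that other glia also express. C4b ranged from 55.0 to 79.1 CPM in the 10 WT libraries and from 103 to 197 CPM in the 7 APP/PS1 libraries, without overlap. Its log2 change was 1.14 ± 0.12 (SE) over both peptides (adjusted p = 2.19e-05, edgeR with Benjamini-Hochberg) and 1.22 ± 0.16 (SE) with inhibitor (adjusted p = 0.000617, same test). The microglial markers that rose in the same comparison are given above. Of 7 astrocyte markers 1 rose as well. The part of these cells in the C4b result was not tested, and C4b was known from an earlier analysis of these libraries to differ by genotype. Apod, the highest of the list at 174 CPM per kilobase, had a log2 change of -0.40 ± 0.31 (SE).

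For inhibitor over both genotypes, 0 of the 80 genes passed edgeR, and the medians of the 6 lists ran from -0.094 (transcription factors) to -0.031 (lipid and metabolism), against -0.16 for the 9 members. The genes with the smallest unadjusted p were Tspan15 (-0.20 ± 0.092 (SE)), a tetraspanin, Fdft1 (-0.13 ± 0.072 (SE)), an enzyme of cholesterol synthesis, and Plekhb1 (-0.21 ± 0.10 (SE)). In the other lists they were Myrf (-0.20 ± 0.15 (SE)), the transcription factor of myelination, Lhfpl3 (-0.23 ± 0.12 (SE)), a marker of precursors, and Il33 (-0.27 ± 0.16 (SE)), a cytokine. Tspan15 had an unadjusted edgeR p of 0.0467, and the other 5 lay above 0.05.

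**Figure D5:**
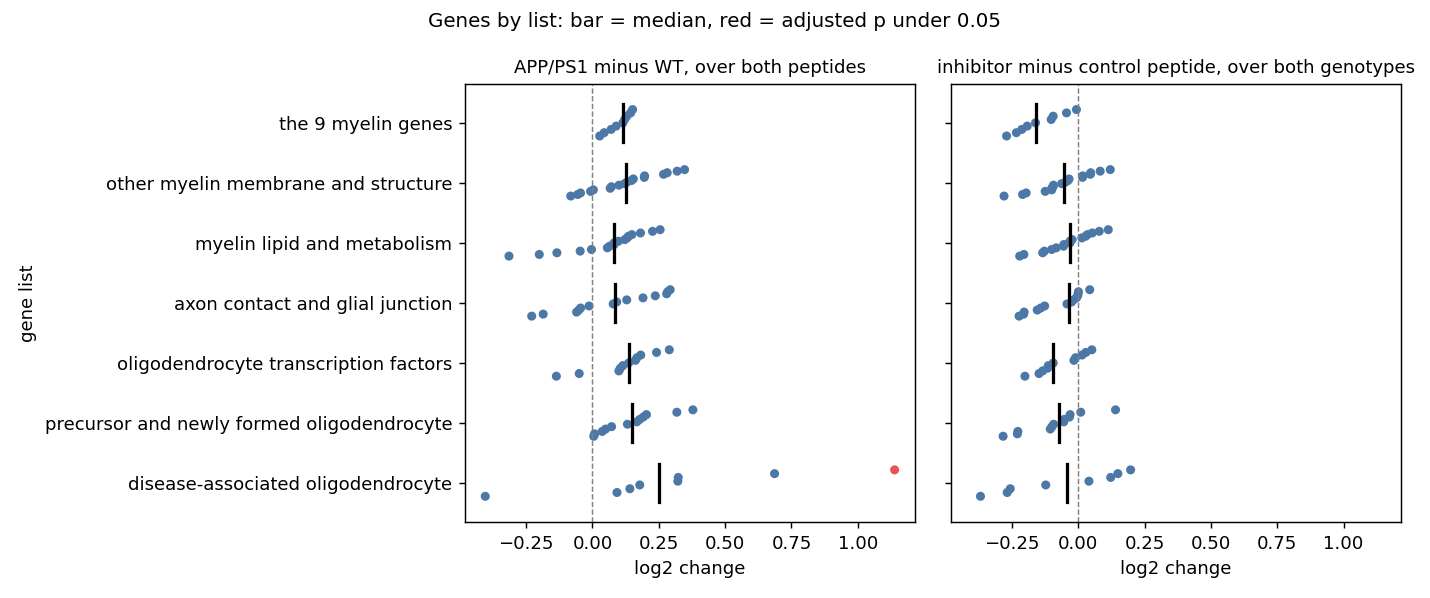
Log2 change of each gene, grouped by list, for genotype over both peptides (left) and inhibitor over both genotypes (right), with the list median as a bar and genes with an adjusted edgeR p under 0.05 in red. C4b was the gene that passed, at 1.14, while the medians of the lists ranged from 0.082 to 0.25 for genotype.

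Genes whose level most resembled the mean log2 CPM of the 9 members over the 17 libraries were Gpr37 (r = 0.89), Edil3 (0.88), Lhfpl3 (0.87), Tspan2 (0.86), S1pr5 (0.85), Vip (0.84), Npc1 (0.84), Efnb3 (0.84), Foxred2 (0.84) and G6pc3 (0.83). Gpr37, a receptor of oligodendrocytes, Tspan2, a tetraspanin, Lhfpl3 and S1pr5, a sphingosine phosphate receptor, are in the lists above, while the neuropeptide gene Vip is expressed by neurons. These values are a description over libraries that share scaling and depth. The median r over the other 18744 genes was -0.020, and 6.22% of them had r above 0.5. Of the 80 list genes 34 did.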

How the data were processed

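RNA was sequenced from cortical microvessels collected by centrifugation through dextran, after depletion of ribosomal RNA and with a stranded kit, per the labels' protocols. The deposited values are raw counts for 42687 Ensembl genes, and the submitters' processing notes name cutadapt, STAR, HTSeq and DESeq2, with no versions, and the builds GRCh37 and mm10, with no roles. Whether counting used strand, and how reads that match several genes were treated, is not given in the sources used here. Of the columns, 17 matched a sample, and 20 matched none and were not used. Symbols came from GENCODE vM21, which matched 42250 identifiers and not 437. The 9 members and the gene lists were chosen with earlier results of these data known.

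Genes were kept with filterByExpr (18753 genes), counts were scaled by TMM, and edgeR 4.0.16 in R 4.3.3 gave quasi-likelihood F tests with Benjamini-Hochberg adjustment over all genes tested, at a threshold of 0.05. A model with 1 mean per group over all 17 libraries gave the single comparisons and the interaction, and a model with additive terms for genotype and peptide gave the rest. Log2 CPM used a prior count of 2. Standard errors were derived from the estimate and the F statistic, with intervals at 95%. Correlations used 100000 permutations. A gene in 17 libraries has a counting error set by its depth: 7316503 to 17862965 counts per library, and at least 109 counts for a member. All 136 pairs of libraries were compared, and 0 were identical. Chi-square over degrees of freedom for pairs of a group was 5.04 to 84.3. Each library was counted as 1 replicate, though these values cannot show that the libraries came from separate mice. The fits were tested on simulated data.

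All 9 members are named. Of the other lists, the genes named are those past the threshold, those with the smallest unadjusted p for genotype and for inhibitor, and the highest per kilobase; some genes that this rule selects are not reported here. Alternatives were DESeq2 size factors and the DESeq2 1.42.0 Wald test, no filter on low counts, Gm26917 and Gm42418 left out, fits of only the 2 groups compared, and each library left out in turn. Leaving out WT_SC replicate 1 together with WT_NOX2 replicate 3 was added after their Mal, Opalin and erythroid levels were seen. The labels give no batch.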

Additional observations from a re-analysis of the deposited data

Results flagged for a closer look

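Within groups of 5 libraries, 33 sets of values were examined for a single library far from the others, by the gap to its nearest neighbour over the whole range (critical value 0.71), and 6 had one. Chance alone gives about 1 in 20 for a single set. The sets share libraries, however, so their number cannot be set against that rate. All 6 lay in WT_SC replicate 1, APP_NOX2 replicate 1 or WT_NOX2 replicate 1. Mal in WT_SC replicate 1 had a log2 CPM of 8.35, against 7.10 to 7.20 in the rest of its group. Cldn11 in the same library was at 8.03, against 6.77 to 7.08. That library also had the most counts of its group, 17862965 against 9356110 to 11342154. Mog in APP_NOX2 replicate 1 was at 5.10, against 5.54 to 5.56, and Mag in the same library was at 6.77, against 7.37 to 7.48. Mbp in WT_NOX2 replicate 1 was at 8.64, against 8.89 to 8.93. The part of library depth and of other cell types in these values was not tested.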

How the results depend on the processing

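No member passed the threshold under any of the alternatives run, and the smallest adjusted p of a member was 0.426. Of 63 estimates (9 genes in 7 comparisons), 32 changed sign with some single library left out. No paired analysis was possible because the replicate numbers were given in the order of the samples and pair no libraries. The DESeq2 Wald test called 182 genes for genotype over both peptides, 45 with control peptide and 61 with inhibitor, against 110, 10 and 34 in edgeR. Leaving out single libraries gave 70 to 125, 4 to 17 and 15 to 38 genes. The count moved by over 1.5 times without APP_SC replicate 2 (70) over both peptides, and without WT_SC replicate 3 (6) or 4 (17) or APP_SC replicate 1 (6) or 2 (4) with control peptide. With inhibitor it did so without WT_NOX2 replicate 1 (21), 3 (19) or 5 (15) or APP_NOX2 replicate 2 (15) or 4 (17). The median of the members ranged from -0.36 to 0.0084 for inhibitor in APP/PS1 and from -0.16 to 0.13 for the interaction when single libraries were left out, the low ends without APP_SC replicate 2 and the high ends without APP_SC replicate 1, and the latter was -0.25 without both WT_SC replicate 1 and WT_NOX2 replicate 3. Pairs of members past the threshold numbered 5 to 10, the last without WT_NOX2 replicate 3. Mal with Opalin had r from -0.68 to -0.49. Mobp for genotype with control peptide was -0.0083 with DESeq2 size factors, -0.0084 in the Wald test and -0.0032 without Gm26917 and Gm42418, against 0.0046, and Opalin for genotype with inhibitor was 0.0095 without a filter. Without both libraries the estimates that changed sign were Opalin -0.067 for genotype over both peptides, Mog -0.021 and Mal 0.16 for genotype with inhibitor, Mog 0.11, Mag 0.086, Cldn11 0.073, Mal 0.061 and Ermn 0.10 for inhibitor in WT, Mag 0.054 for inhibitor over both genotypes, Mag -0.075 for the interaction. Leaving out each library in turn changed the sign as follows. For genotype over both peptides the ranges were Mal -0.052 to 0.16, Mbp -0.035 to 0.069, Mog -0.0027 to 0.12 and Opalin -0.0082 to 0.21. For genotype with control peptide the ranges were Cldn11 -0.022 to 0.48, Cnp -0.076 to 0.012, Mal -0.12 to 0.50, Mobp -0.27 to 0.23 and Mog -0.14 to 0.34. For genotype with inhibitor the ranges were Mal -0.14 to 0.16, Mog -0.021 to 0.12 and Opalin -0.18 to 0.19. For inhibitor in APP/PS1 the ranges were Ermn -0.37 to 0.0088, Mag -0.053 to 0.13, Mal -0.53 to 0.0084, Mbp -0.15 to 0.025, Mobp -0.38 to 0.12 and Mog -0.36 to 0.12. For inhibitor in WT the ranges were Cldn11 -0.30 to 0.11, Ermn -0.17 to 0.053, Mag -0.064 to 0.039, Mal -0.27 to 0.25, Mog -0.16 to 0.043 and Opalin -0.29 to 0.073. For inhibitor over both genotypes the ranges were Mag -0.035 to 0.028 and Mal -0.28 to 0.031. For the interaction the ranges were Cldn11 -0.38 to 0.13, Ermn -0.33 to 0.053, Mag -0.037 to 0.15, Mal -0.53 to 0.10, Mobp -0.046 to 0.45 and Mog -0.30 to 0.18. Depth limits Opalin most, with 109 counts in its lowest library, and the 2 libraries of APP_SC limit every comparison that uses them. The causes of these shifts were not tested.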
